A study of Cannabis sativa with 12 samples.

Results

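Whole hypocotyls of hemp (Cannabis sativa cv. Santhica 27, a fibre cultivar) harvested 20 days after sowing (H20) were compared with hypocotyls harvested 9 days after sowing (H9), across all 3622 deposited contigs out of 3622, with 3 libraries on each side and 6 of the series' 12 libraries in all. The hypocotyl is the stem piece between root and cotyledons. Each library came from a pool of 20 hypocotyls drawn from all incubators of a single experimental batch, kept at 25 °C during 16 h of light and at 20 °C during 8 h of darkness, and the labels name no treatment. The remaining libraries, 3 pools of day 6 (H6) and 3 of day 15 (H15), were grown the same way and enter below to show where a gene stood before day 9 and between the days compared. mRNA was sequenced as stranded libraries, and the values are reads per contig and RPKM, which are the reads scaled to contig length and to the mapped reads of the library.

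A hypocotyl first lengthens through the expansion of cells that are already present, with loosened primary walls, proton pumping and auxin response, under an epidermis that keeps laying down cuticle. It then thickens. The cambium, a layer of dividing cells inside the stem, forms xylem inwards and phloem outwards, and xylem cells and fibres build secondary walls of cellulose, xylan and, in most of them, lignin. Hemp bast fibres, which lie in the phloem, are known for thick cellulose-rich walls with little lignin. Comparing day 20 with day 9 leaves out the day 6 seedling, and so asks what separates a hypocotyl at the start of thickening from the oldest one sampled.

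Each contig is named after the Arabidopsis gene it matched best, several contigs can share a match, and roles given here are those known from Arabidopsis. The counts hold only reads with a single position, so where copies of a gene are alike, reads they share may be missing from the counts. The contig sequences are not used here. For genes that the wall results turn on, the primer pairs that the study designed on the hemp contigs for RT-qPCR show which transcript a name stands for. They are written 5′ to 3′ in lower case, forward and then reverse.
CESA4 (contig 804) forward: ggggtggaatgctaagactg
CESA4 (contig 804) reverse: ggcttccatttccccaaac
CESA7 (contig 6418) forward: cctgatgtcaagcaatgtgg
CESA7 (contig 6418) reverse: tgtatcttgtggggatgcac
CESA8 (contig 9355) forward: gggagccaaaggaacctg
CESA8 (contig 9355) reverse: gagctgttcaccacaagtgttac
FLA11 (contig 10048) forward: aaagcagggcaatacaccac
FLA11 (contig 10048) reverse: aatgccctgacttgaaccac
LAC4 (contig 5768) forward: aatggactcttccataattcgac
LAC4 (contig 5768) reverse: tcggactctacattcaaccaaag
NST1 (contig 13708) forward: cctggcttcagatttcatcc
NST1 (contig 13708) reverse: tatcccagggttcgagtttg

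The counts, RPKM and contig lengths imply 19075099 to 20193017 mapped reads in the H9 libraries and 16554330 to 22624938 in those of H20, if RPKM was computed from the deposited counts. Of these 31.1 to 32.8% fell in the contigs analysed, and the lowest count of a contig in any library was 11. The authors had removed genes with few or no mapped reads in a library and kept only contigs that differed among the 4 days. The lowest count and the counts of calls therefore describe that selection and not the whole transcriptome. The adjusted p values are bound to it too, since the same libraries had served to select the contigs. Between H20 and H9, 892 contigs rose (24.6%) and 985 fell (27.2%), together 51.8% of those tested, where a call needed both an edgeR adjusted p under 0.05 and more than a 2-fold difference (a log2 fold change beyond 1 in either direction). More contigs fell far than rose far: 371 were called with more than a 4-fold fall and 248 with more than a 4-fold rise, and for 8-fold changes the counts were 142 and 77. The median log2 fold change was -0.05, and -0.17 when libraries were scaled by their mapped reads alone, which gave 801 higher and 1116 lower. With DESeq2 size factors the order turned, with 951 higher and 920 lower and a median of 0.01. In 3135 contigs (86.6%) the 3 H9 and 3 H20 libraries did not overlap. Counts of list members given below are to be set beside the 24.6% higher and 27.2% lower over all contigs. Below, a contig rose or fell only where it was called in this comparison, values are RPKM of the 3 libraries in the order of their replicate numbers unless a mean is named, fold changes are edgeR log2 estimates of H20 against H9 with their standard errors, and numbers in brackets after a name identify the contig.

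The largest rise was that of MIOX1 (14402), an inositol oxygenase, which makes glucuronic acid from myo-inositol. It had 3.41, 2.04 and 0.82 RPKM in H9 and 1380.2, 1248 and 1136 in H20 (log2 fold change 9.34 ± 0.69, edgeR adjusted p = 1.08e-07). It was nearly silent in each H9 pool and among the abundant transcripts of each H20 pool. Its mean was 12.9 in H6 and 246 in H15. A lipid transfer protein gene, AT5G38170 (19358), had 4.07, 1.97 and 1.29 in H9 and 209.7, 156 and 264 in H20 (log2 fold change 6.53 ± 0.38, edgeR adjusted p = 1.84e-08). A cellulase of glycosyl hydrolase family 5, AT1G13130 (15513), had 33.7, 25.4 and 21.5 in H9 and 859, 406 and 669 in H20 (log2 fold change 4.70 ± 0.47, edgeR adjusted p = 1.22e-06). Both were chosen among contigs without overlap between the days, and the H20 pools of the cellulase were the more uneven. PRX52 (18987), a cell wall peroxidase of fibre lignification, rose from 4.93, 6.27 and 5.40 to 128, 108 and 117. Other contigs among the 12 largest rises were a seed storage and lipid transfer family gene, AT3G22142 (4751), with 35.9, 38.2 and 39.9 in H9 and 781, 753 and 874 in H20, the pectin methylesterase PME53 (2957), with 1.26, 0.51 and 1.38 in H9 and 41.1, 32.6 and 32.0 in H20, and the chaperones HSP101 and HSP90.1, described below.

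The deepest fall was that of MLP423 (2062), a member of the major latex protein family, with 409.9, 439.8 and 300.3 RPKM in H9 and 2.63, 2.99 and 7.25 in H20 (log2 fold change -6.36 ± 0.34, edgeR adjusted p = 8.56e-09). LOX2 (584), a plastid lipoxygenase at the entry to jasmonate synthesis, had 39.5, 67.1 and 36.8 in H9 and 0.43, 0.32 and 1.34 in H20 (log2 fold change -5.97 ± 0.60, edgeR adjusted p = 1.26e-06). DUF642 (355), a cell wall protein, had 168, 173 and 166 in H9 and 4.51, 5.69 and 4.11 in H20 (log2 fold change -5.04 ± 0.15, edgeR adjusted p = 2.03e-10). Freedom from overlap was again a condition of the choice, and the H15 means of these 3 were 2.32, 1.46 and 7.30. SWEET12 (5142), a sugar exporter, fell from 34.9, 80.6 and 44.0 to 1.23, 2.05 and 2.46, and ICL (14772), isocitrate lyase of the glyoxylate cycle, from 10.2, 17.1 and 13.4 to 0.34, 0.73 and 0.44. CML25 (13348), a calmodulin-like calcium sensor, had 160.0, 244 and 257 in H9 and 7.17, 7.54 and 8.54 in H20. Its H6 mean was 15.0, below every H9 pool, whereas the H6 means of the other 5 genes were above the lowest H9 pool.

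**Figure D1:**
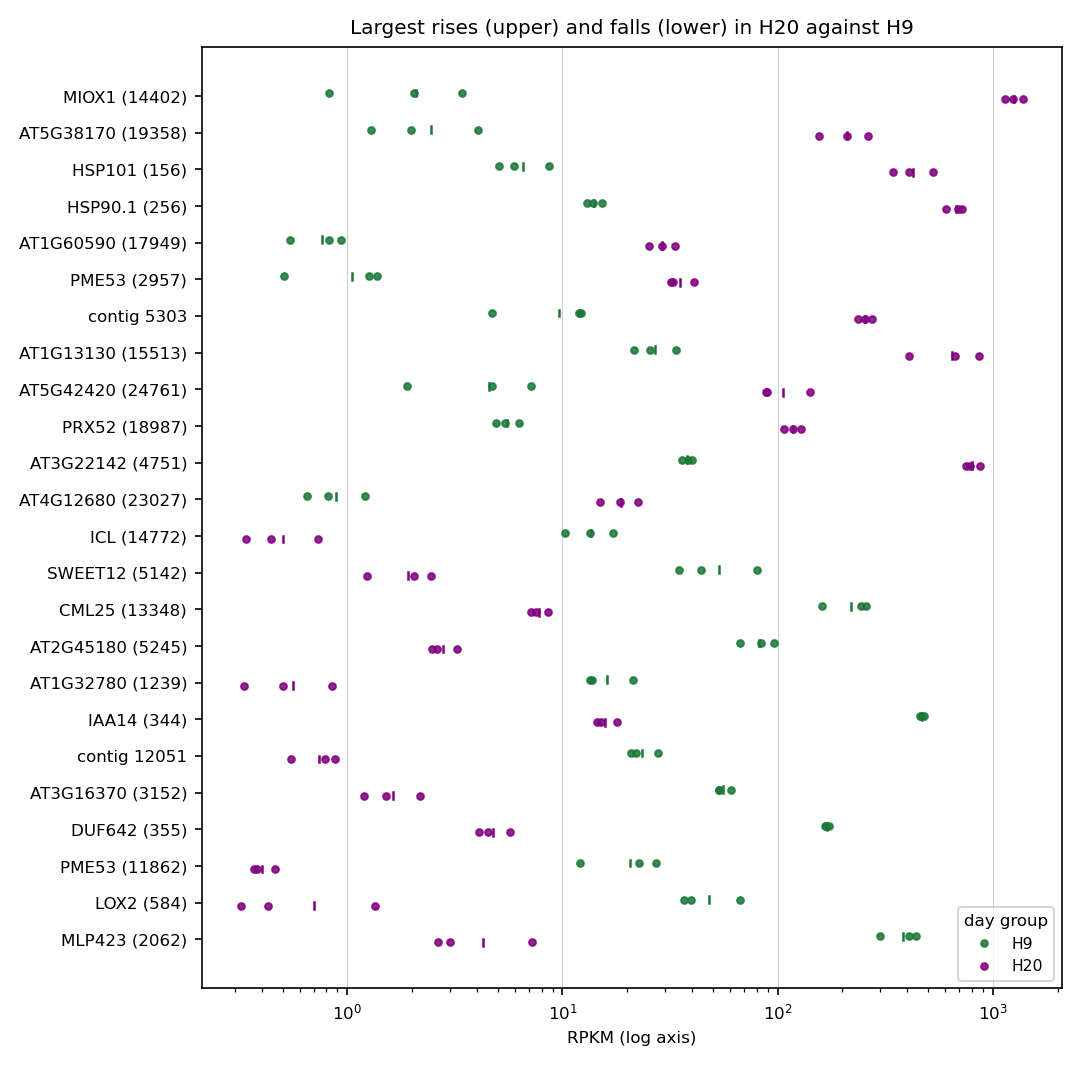
RPKM (log axis) of the 12 largest rises and the 12 largest falls in H20 against H9, with the contig number in brackets; dots are the 3 libraries of H9 (green) and H20 (purple) and short bars their means. Only contigs without overlap between the days were eligible. They run from MIOX1 with a log2 fold change of 9.34 at the top to MLP423 with -6.36 at the bottom.

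The list of secondary wall cellulose holds 6 contigs of cellulose synthesis and 3 of fasciclin-like proteins, and 9 of 9 rose, with a median log2 fold change of 2.03 beside -0.05 over all contigs. CESA4, CESA7 and CESA8 are the catalytic subunits of the cellulose synthase complex of secondary walls. CESA8 (9355) had 88.7, 60.5 and 95.8 RPKM in H9 and 478, 344 and 393 in H20 (log2 fold change 2.42 ± 0.30, edgeR adjusted p = 7.04e-06). CESA7 (6418) had 98.6, 67.3 and 115 in H9 and 449, 351 and 407 in H20 (log2 fold change 2.22 ± 0.35, edgeR adjusted p = 7.04e-05). CESA4 (804) had 506, 315 and 402 in H9 and 1425, 1388 and 1449 in H20 (log2 fold change 1.91 ± 0.21, edgeR adjusted p = 2.40e-06), and its second contig (812) 378, 217 and 337 in H9 and 1130.0, 894 and 1021 in H20. No H9 pool reached an H20 pool for any of the 4 contigs, and H9 replicate 2 was the lowest H9 pool in each. CTL2 (11397), a chitinase-like protein, and COBL4 (5530), a COBRA-like protein, both needed for orderly cellulose deposition, rose by 2.15 and 1.95 on the log2 scale.

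The fasciclin-like arabinogalactan proteins of this list, glycoproteins of the wall surface in fibres and xylem, are the other 3 of the 9. Outside it FLA16 (3549) rose by 1.74, while FLA2 (12544) lay lower in every H20 pool at -0.35 without passing. FLA12 (15115) had 84.0, 58.5 and 70.5 RPKM in H9 and 1418, 622 and 1082 in H20 (log2 fold change 3.99 ± 0.79, edgeR adjusted p = 4.08e-04), with the widest spread among H20 pools in the list. FLA12 (1788) had 238, 158 and 232 in H9 and 845, 722 and 810.4 in H20 (log2 fold change 2.03 ± 0.34, edgeR adjusted p = 1.00e-04). FLA11 (10048), on which a primer pair above was drawn, had 226, 163 and 218 in H9 and 757, 704 and 737 in H20 (log2 fold change 1.97 ± 0.27, edgeR adjusted p = 2.12e-05). None of these contigs overlapped between the days. The H15 means were 909.7, 708 and 783, and H20 against H15, which shares the H20 libraries, called 0 of the 9 cellulose contigs in a comparison that called 13.6% of all contigs (5.25% higher and 8.31% lower), as did DESeq2 and limma, and 0 of the 9 had an unadjusted edgeR p under 0.05. H9 against H6, which shares the H9 libraries and called 36.0% of all contigs (17.9% higher and 18.2% lower), had 8 of the 9 higher in H9.

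**Figure D2:**
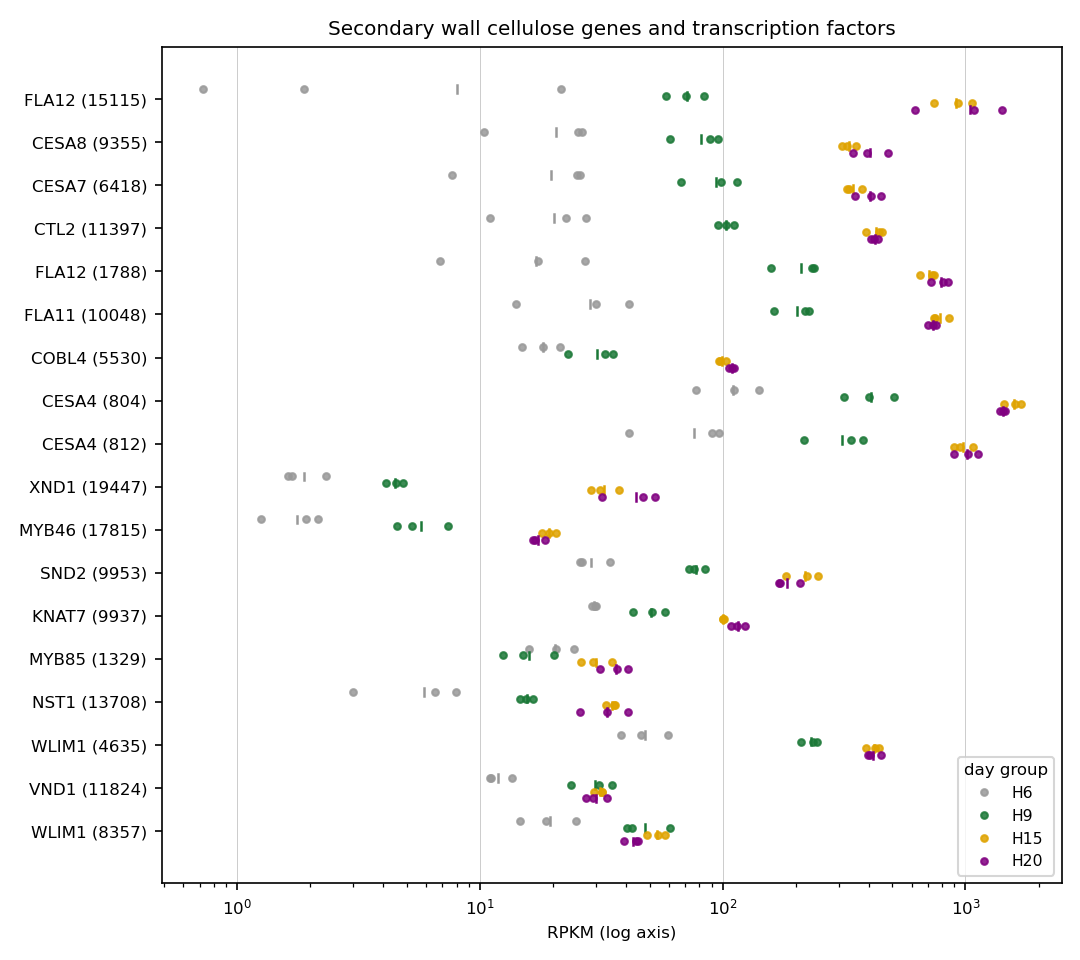
RPKM (log axis) of the secondary wall cellulose contigs and secondary wall transcription factors in the 3 libraries of each day (dots; short bars are means), with the contig number in brackets. The H20 and H15 dots lie close together and to the right of H9 for the 9 cellulose contigs, while VND1 and WLIM1 (8357), with log2 fold changes of 0.11 and -0.05, overlap between H9 and H20.

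Markers of fibre and xylem walls, which this list shares, had a summed level of 1617 to 2459 RPKM in the H9 libraries and 6226 to 7563 in those of H20, with 10 of 18 contigs higher and 1 lower. Whole hypocotyls were extracted, so that more cells of a type and more RNA per cell cannot be told apart, here or for any gene below. H9 replicate 2 was the lowest H9 library for 9 of 9 cellulose contigs, 13 of 18 xylan contigs and 12 of 14 laccase contigs, and left out it removed none of the 9 cellulose or 16 xylan calls.

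Transcription factors above this programme rose less uniformly, 6 of 9 with a median of 1.3. XND1 (19447), a NAC factor that holds back xylem differentiation, had 4.11, 4.50 and 4.82 RPKM in H9 and 52.6, 31.7 and 47.1 in H20 (log2 fold change 3.40 ± 0.21, edgeR adjusted p = 2.61e-08). All H20 pools were above all H9 pools by a wide margin. NST1 (13708), a NAC switch of fibre walls, had 16.6, 14.6 and 15.5 in H9 and 40.5, 25.8 and 33.5 in H20 (log2 fold change 1.21 ± 0.26, edgeR adjusted p = 7.94e-04). MYB46 (17815), a MYB switch downstream of such NACs, had 7.38, 5.22 and 4.54 in H9 and 16.5, 18.4 and 16.9 in H20 (log2 fold change 1.71 ± 0.19, edgeR adjusted p = 3.48e-06). SND2 (9953), KNAT7 (9937) and MYB85 (1329), regulators further down, rose by 1.35, 1.31 and 1.3 on the log2 scale. VND1 (11824), a NAC switch of vessels, had 30.8, 23.7 and 35.0 in H9 and 27.3, 33.3 and 29.2 in H20 with overlapping pools (log2 fold change 0.11 ± 0.18, edgeR adjusted p = 0.564). The LIM protein WLIM1, which bundles actin, did not pass in either contig: one (4635) had 211, 244 and 235 in H9 and 448, 398 and 406 in H20 at a log2 fold change of 0.97, just under the threshold, and the other (8357) 42.3, 60.6 and 40.3 in H9 and 43.8, 44.9 and 39.3 in H20. With DESeq2, or without H20 replicate 2, H9 replicate 2 or H9 replicate 3, 7 of the 9 factors were higher, WLIM1 (4635) among them. H20 against H15 called 0 of these 9 with edgeR, DESeq2 or limma, and 1 had an unadjusted edgeR p under 0.05.

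Xylan, the main hemicellulose of secondary walls, showed 16 of 18 contigs higher and 0 lower, with a median of 1.44. IRX10 (13249), an enzyme of the xylan backbone, had 53.5, 41.1 and 55.6 RPKM in H9 and 159, 209.7 and 201 in H20 (log2 fold change 2.03 ± 0.24, edgeR adjusted p = 4.55e-06). IRX14 (4066), of the same complex, had 76.0, 61.2 and 73.5 in H9 and 232, 277 and 239 in H20 (log2 fold change 1.94 ± 0.14, edgeR adjusted p = 1.01e-07). Both rose without overlap. GUX1 (6747) and GUX2 (4350), which add glucuronic acid side chains, rose by 1.93 and 2.21, and 3 GXM1 contigs, whose enzyme methylates those side chains, by 1.75, 2.12 and 1.58. IRX15L (10893) had 64.8, 49.9 and 57.8 in H9 and 231, 291 and 281 in H20 (log2 fold change 2.33 ± 0.19, edgeR adjusted p = 2.28e-07). Of genes that acetylate xylan, RWA3 (4211), ESK1 (6501) and 2 TBL34 contigs rose by 1.3, 1.28, 1.33 and 1.32. GUX4 (9407) and TBL35 (10) did not pass, TBL35 lying lower in H20 at -0.61.

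Of 12 contigs that supply nucleotide sugars to wall synthesis, 8 rose and 0 fell, with a median of 1.27. SUS4 (839), a sucrose synthase that makes UDP-glucose, had 589, 471 and 644 RPKM in H9 and 1223, 1391 and 1291 in H20 (log2 fold change 1.31 ± 0.18, edgeR adjusted p = 1.51e-05). UXS5 (1143), which makes UDP-xylose, had 476, 387 and 380.3 in H9 and 938, 1138 and 959 in H20 (log2 fold change 1.40 ± 0.14, edgeR adjusted p = 1.46e-06), and a second such gene, UXS2 (11054), rose by 1.41 on the log2 scale. The pools of these genes did not overlap. RGP2 (6909), of a family that interconverts UDP-arabinose forms, rose most, from 20.0, 17.8 and 17.1 to 89.1, 90.5 and 87.5 (log2 fold change 2.40 ± 0.10, edgeR adjusted p = 2.16e-09). Both SUS6 contigs (11925 and 11699) missed the test at edgeR adjusted p = 0.0864 and 0.0718, with H9 pools as far apart as 17.5, 9.50 and 29.8 in the first. CYT1 (6010), which makes GDP-mannose, stayed under the fold threshold at 0.37.

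Lignin precursors are made from phenylalanine by the phenylpropanoid pathway, of which 14 of 17 contigs rose and 1 fell (median 1.35). At its entry, PAL1 (1672) and PAL2 (2941), phenylalanine ammonia-lyases, rose by 1.33 and 1.42, C4H (579) by 1.38, and 4CL1 (7103) had 41.9, 31.2 and 44.9 RPKM in H9 and 148, 167 and 159 in H20 (log2 fold change 2.12 ± 0.18, edgeR adjusted p = 3.34e-07). Of the monolignol branch, CCoAOMT1 (2388), a methyltransferase, had 575, 445 and 563 in H9 and 1141, 1347 and 1253 in H20 (log2 fold change 1.35 ± 0.15, edgeR adjusted p = 2.88e-06). OMT1 (6693) had 216, 174 and 173 in H9 and 599, 629 and 626 in H20 (log2 fold change 1.83 ± 0.13, edgeR adjusted p = 6.33e-08). The pools of these enzymes did not overlap. CCR1 (8326) and CAD4 (1798), reductases at the end of the branch, rose by 1.05 and 1.05, just past the threshold, and lost the call without H9 replicate 2 (0.94 and 0.92), with mapped reads alone (0.93 for each) and with limma on log2(RPKM + 1) (0.93 and 0.94). The study's RT-qPCR primers for CAD4 and PAL1 were drawn on other contigs of these names, 10133 and 17365, which are not described here. A low-level contig matched to HCT (14769), an acyltransferase, fell from 15.2, 17.1 and 18.1 to 0.81, 1.51 and 1.01. The paper reports an HCT ortholog that was higher in H20 than in H6. Whether that is the same contig was not examined.

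The methyl groups used by these methyltransferases come from S-adenosylmethionine, and 6 of 9 contigs of its supply rose, 0 fell (median 1.10). SAM3 (1452), an S-adenosylmethionine synthetase, had 379.5, 289 and 376 RPKM in H9 and 1036, 1300.0 and 1121 in H20 (log2 fold change 1.84 ± 0.21, edgeR adjusted p = 4.23e-06). SAHH2 (585), which clears the by-product of methylation, was among the most abundant contigs described here, with 1112, 994 and 1325 in H9 and 2119.9, 2321 and 2205 in H20. Its log2 fold change was 1.06, and the call was lost without H9 replicate 2 (0.96), with mapped reads alone (0.95) and with limma (0.96). The ATMS1 contigs (2444 and 54), methionine synthases, rose by 1.42 and 1.12, the second at 0.96 without H9 replicate 2.

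Laccases and class III peroxidases, which couple monolignols in the wall, had contigs called in both directions. Of 14 laccase contigs 6 rose and 1 fell, with a median of 0.63. LAC13 (13165) had 7.00, 8.36 and 3.84 RPKM in H9 and 103, 66.5 and 82.0 in H20 (log2 fold change 3.84 ± 0.33, edgeR adjusted p = 3.38e-07). LAC4 (18137) had 28.5, 20.2 and 18.3 in H9 and 134, 148 and 149 in H20 (log2 fold change 2.80 ± 0.31, edgeR adjusted p = 2.75e-06). LAC4 (5768), the contig of the primer pair, had 131, 75.1 and 134 in H9 and 274, 307 and 294 in H20 (log2 fold change 1.47 ± 0.28, edgeR adjusted p = 2.82e-04). For these 3 all H20 pools were above all H9 pools. LAC17, a lignin laccase of stems, had contigs that moved apart: 9466 rose by 1.49, while 8833 had 179, 158 and 197 in H9 and 58.1, 98.9 and 84.7 in H20 at -1.04, a call lost with DESeq2 (-0.97), without H20 replicate 1 (-0.85) and without H9 replicate 3 (-0.93). H9 against H6 called 14 of the 14 laccase contigs higher in H9, and H20 against H15 called 0 with edgeR, DESeq2 or limma, with 2 at an unadjusted edgeR p under 0.05.

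Peroxidases rose in 7 of 21 contigs and fell in 7, with a median of 0.00 whose sign depends on the scaling (-0.12 with mapped reads alone). These are 33.3% each way, not far from the 24.6% higher and 27.2% lower over all contigs. PRX64 (2814), known from lignification of fibres and the Casparian strip, had 142, 126 and 119 RPKM in H9 and 471, 626 and 559 in H20 (log2 fold change 2.21 ± 0.16, edgeR adjusted p = 1.08e-07). PRX54 (17870) had 21.4, 19.2 and 18.0 in H9 and 174, 99.0 and 153 in H20 (log2 fold change 2.98 ± 0.22, edgeR adjusted p = 1.16e-07). In the other direction the peroxidase ATP2a (1518) had 619, 633 and 518 in H9 and 75.6, 82.7 and 84.5 in H20 (log2 fold change -2.75 ± 0.13, edgeR adjusted p = 4.33e-09), PRX47 (1488) 129, 94.2 and 140.2 in H9 and 24.8, 21.3 and 23.1 in H20, and PRX12 (3055) 129, 215 and 162 in H9 and 42.7, 45.0 and 42.6 in H20. None of these 5 overlapped between the days. PRX42 (963) had the highest peroxidase level on both days, with 1599, 1254 and 895 in H9 and 1215, 1068 and 1168 in H20, and after it ATP2a stood highest in H9 and PRX64 in H20.

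The cambium showed smaller differences. Of 11 contigs of cambium and vascular patterning 5 rose and 0 fell, with a median of 0.74. MP (8046), the auxin response factor that sets up vascular strands, had 6.68, 4.90 and 6.12 RPKM in H9 and 15.9, 14.6 and 14.9 in H20 (log2 fold change 1.48 ± 0.16, edgeR adjusted p = 2.10e-06). CYCD3;2 (20166), a D-type cyclin of cambial division, had 10.7, 13.6 and 15.3 in H9 and 34.8, 36.7 and 37.0 in H20 (log2 fold change 1.57 ± 0.16, edgeR adjusted p = 1.62e-06). Their pools did not overlap. WOX4 (765), a homeobox regulator of cambial activity, had 63.1, 64.0 and 61.3 in H9 and 75.5, 86.3 and 85.7 in H20 with a log2 fold change of 0.51, and the receptor kinase PXY (3200) 59.8, 44.9 and 59.5 in H9 and 60.1, 74.2 and 66.9 in H20 (log2 fold change 0.40 ± 0.18, edgeR adjusted p = 0.051). Neither passed, and these cambium markers, 2 of 4 listed, summed to 109 to 123 RPKM in H9 and 136 to 160 in H20. The others listed had no contig. The cyclin CYCD3;1 (6063) and LBD4 (15475), a LOB-domain factor, lay higher without passing, at 0.74 and 0.69. LHW (10152), a bHLH factor of vascular divisions, and LHL2 (1451), of the same family, lay lower without passing, at -0.71 and -0.23. PTL (12457) and T5L1 (8124) rose by 1.14 and 1.06, and with limma the list had 3 calls in place of 5.

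Of 27 cell cycle contigs 10 rose, 0 fell and 17 were not called (median 0.85), where 24.6% of all contigs rose. Histone H1.2, AT2G30620 (7299), was lower in every H20 pool at -0.28 without passing. Of 25 tubulin, kinesin and microtubule contigs 14 rose and 0 fell (median 1.11). CYCD6;1 (11624), a cyclin of formative divisions, had 1.45, 1.76 and 2.13 RPKM in H9 and 8.05, 7.90 and 8.29 in H20 (log2 fold change 2.29 ± 0.21, edgeR adjusted p = 5.32e-07). The mitotic cyclins CYCB2;3 (12719) and CYCB1;3 (2550) rose by 1.27 and 1.25, the kinase AUR1 (13008) by 1.42 and the spindle protein TPX2 (7801) by 1.33. MAP65-8 (12286), of a family that bundles microtubules, had 22.8, 15.6 and 20.7 in H9 and 133, 107 and 118 in H20 (log2 fold change 2.71 ± 0.25, edgeR adjusted p = 6.65e-07). MAP70-5 (9681), known from the patterned wall thickenings of tracheary cells, had 42.0, 36.4 and 47.5 in H9 and 140.5, 154 and 162 in H20 (log2 fold change 1.97 ± 0.22, edgeR adjusted p = 3.68e-06). TUB8 (3122), a beta-tubulin, rose from 294, 250.1 and 290.4 to 704, 748 and 691 (log2 fold change 1.47 ± 0.13, edgeR adjusted p = 5.39e-07). All 25 microtubule contigs had every H20 pool above every H9 pool, which 40.0% of all contigs had, and H20 against H15 called 0 of them with edgeR, DESeq2 or limma, with 7 at an unadjusted edgeR p under 0.05.

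Phloem contigs gave an uncertain picture. SEOR1 encodes the protein that forms filaments in sieve elements, the conducting cells of phloem, and 4 of its 6 contigs were called higher, by 1.13, 1.08, 1.06 and 1.03 (contigs 4538, 290, 8525 and 5562). SEOR1 (675), the most abundant, had 187, 123 and 246 RPKM in H9 and 278, 260.2 and 289 in H20 (log2 fold change 0.68 ± 0.27, edgeR adjusted p = 0.0329). In all of the first 5 contigs H9 replicate 2 was the lowest pool and H9 replicate 3 the highest of that day. Without H9 replicate 2 none of the 4 calls held (0.83, 0.85, 0.81 and 0.83). The list, which also holds SWEET12, had 4 higher and 1 lower, 2 higher without H9 replicate 1 or H20 replicate 3, 2 with limma and 1 with mapped reads alone. SEOR1 (6809) lay lower, with 14.7, 9.23 and 14.8 in H9 and 6.51, 4.41 and 8.66 in H20 (log2 fold change -0.87 ± 0.33, edgeR adjusted p = 0.0272). Summed over the 6 contigs the level was 272 to 562 in H9 and 667 to 758 in H20. SEOR1 was the only one of 4 listed sieve element markers with a contig.

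Of 5 listed vessel markers 3 had a contig, all of them markers of dying vessels, and 0 of these rose. BFN1 (4170), a nuclease of vessel cell death, had 16.2, 11.4 and 10.6 RPKM in H9 and 14.1, 10.4 and 13.1 in H20 (log2 fold change 0.09 ± 0.22, edgeR adjusted p = 0.71). MC9 (12582), a metacaspase that clears the dead vessel, had 23.8, 14.3 and 22.5 in H9 and 12.8, 10.8 and 14.5 in H20 (log2 fold change -0.56 ± 0.32, edgeR adjusted p = 0.122). Pools of the days overlapped in both, and neither passed the test. RNS3 (18342), a ribonuclease, fell from 37.8, 24.1 and 45.0 to 14.7, 12.1 and 11.1 (log2 fold change -1.38 ± 0.51, edgeR adjusted p = 0.0222), a call lost without H20 replicate 2, H20 replicate 3 or H9 replicate 3 (-1.35, -1.29 and -1.15). The summed vessel markers stood at 49.8 to 78.1 in H9 and 33.3 to 41.6 in H20. MYB36 (5123), a regulator of the endodermis barrier, had 9.67, 11.9 and 9.44 in H9 and 15.5, 15.2 and 14.9 in H20, under the fold threshold at 0.67.

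Expansins slacken primary walls in acid conditions, and 2 of 5 contigs fell while 0 rose. EXPA8 (362) had 64.6, 49.5 and 62.1 RPKM in H9 and 2.91, 2.62 and 1.57 in H20 (log2 fold change -4.51 ± 0.28, edgeR adjusted p = 2.43e-08). EXPA5 (1989) had 154, 137 and 154 in H9 and 12.8, 16.3 and 14.4 in H20 (log2 fold change -3.24 ± 0.21, edgeR adjusted p = 3.61e-08). Both fell without overlap. The 3 other expansin contigs did not pass: EXPA4 (3411) had 33.0, 40.0 and 35.8 in H9 and 36.7, 40.3 and 45.1 in H20, contig 3058 lay at -0.35, and contig 783 at 0.98, which passed with DESeq2, without H20 replicate 1 and without H9 replicate 2.

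Xyloglucan endotransglucosylase/hydrolases, which cut and rejoin xyloglucan of primary walls, rose in 3 of 7 contigs and fell in 3. XTH-like (399) had 246, 226 and 241 RPKM in H9 and 10.6, 9.87 and 13.8 in H20 (log2 fold change -4.26 ± 0.20, edgeR adjusted p = 4.41e-09). XTH5 (242) had 606, 572 and 788 in H9 and 209, 209 and 207 in H20 (log2 fold change -1.54 ± 0.13, edgeR adjusted p = 2.81e-07), and XTH31 (8138) fell by 2.86 on the log2 scale. In the other direction TCH4 (2352) rose from 16.9, 19.1 and 16.4 to 53.1, 58.0 and 70.2 (log2 fold change 1.90 ± 0.23, edgeR adjusted p = 6.38e-06) and XTH15 (4706) from 40.9, 45.4 and 49.5 to 123, 140.3 and 135 (log2 fold change 1.66 ± 0.22, edgeR adjusted p = 1.41e-05). None of the 5 overlapped.

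Pectin genes had 16 of 41 contigs higher, 11 lower and a median of 0.72. These are 39.0% and 26.8% of the list, beside 24.6% and 27.2% of all contigs, so that the share lower was near that of all contigs. PME61 (811), a pectin methylesterase, was the most abundant of those that fell, with 1191, 1122 and 1165 RPKM in H9 and 105, 75.5 and 89.7 in H20 (log2 fold change -3.57 ± 0.39, edgeR adjusted p = 2.48e-06). The pectate lyase AT4G13710 (480) had 215, 203 and 211 in H9 and 43.7, 37.8 and 39.2 in H20 (log2 fold change -2.27 ± 0.10, edgeR adjusted p = 2.16e-09). Among those that rose, the pectinesterase AT4G02300 (5620) had 4.59, 3.09 and 2.83 in H9 and 55.4, 62.1 and 65.2 in H20 (log2 fold change 4.23 ± 0.20, edgeR adjusted p = 3.83e-09). AT3G61490 (2211), of the pectin lyase-like family, had 61.4, 47.6 and 67.3 in H9 and 261, 213 and 258 in H20 (log2 fold change 2.17 ± 0.19, edgeR adjusted p = 3.27e-07). Members that rose and members that fell were each free of overlap in these examples. PME53 had one contig of each kind: 2957 rose by 5.17 and 11862 fell from 22.7, 12.0 and 27.2 to 0.37, 0.46 and 0.38.

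Epidermis markers were far lower in H20. The markers ANL2 (5698) and HDG2 (1359), homeodomain factors of the outer cell layer, and FDH (6384), FIDDLEHEAD, a fatty acid elongation enzyme of that layer, summed to 68.9 to 79.1 RPKM in H9 and 4.4 to 6.7 in H20. FDH had 46.3, 43.4 and 40.4 in H9 and 2.56, 1.62 and 1.17 in H20 (log2 fold change -4.47 ± 0.60, edgeR adjusted p = 1.47e-05), HDG2 10.5, 13.9 and 9.70 in H9 and 1.31, 0.76 and 0.92 in H20 (log2 fold change -3.38 ± 0.39, edgeR adjusted p = 4.45e-06), and ANL2 22.3, 19.3 and 18.9 in H9 and 2.87, 2.32 and 2.29 in H20 (log2 fold change -2.89 ± 0.30, edgeR adjusted p = 1.66e-06). All 3 H20 pools of each were below all H9 pools by a wide margin. CPC (7124), a small MYB of hair patterning, fell from 80.3, 119.5 and 84.7 to 24.5, 26.0 and 25.4. ATML1 and PDF1, also listed as epidermis markers, and the listed root hair and shoot apex markers had no contig in the table. Genes outside the authors' limits have no contig there.

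Cuticle and lipid transfer contigs fell in 14 of 28 and rose in 6 (median -0.82). CER6 (188), an elongase of wax synthesis, had 116, 121 and 102 RPKM in H9 and 25.1, 22.3 and 23.4 in H20 (log2 fold change -2.14 ± 0.21, edgeR adjusted p = 8.30e-07). KCS10 (4442), the enzyme that FDH also names, had 48.3, 51.7 and 42.9 in H9 and 2.13, 3.53 and 2.08 in H20 (log2 fold change -4.10 ± 0.31, edgeR adjusted p = 1.37e-07). MYB30 (6977), a MYB activator of wax genes, had 20.14, 18.6 and 12.5 in H9 and 3.87, 2.29 and 4.42 in H20. CYP86A4 (14224) and CYP86A8 (2885), cutin hydroxylases, fell by 1.82 and 1.31 on the log2 scale, and 2 contigs of the exporter ABCG11 (3966 and 13074) by 2.10 and 1.04. These genes for wax and cutin moved as the epidermis markers did, and the part of the epidermis share in their fall was not tested. What rose in the list were lipid transfer protein genes, LTP4 (19134) and AT5G48490 (9617) among them at 3.44 and 2.80, and GPAT8 (671), an acyltransferase of cutin and suberin, at 1.17. GPAT6 (6792) and CER3 (7604) did not pass.

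Transcription factors of elongation and light response fell in 12 of 20 contigs and rose in 1, with a median of -1.17. PIF3 (6212), a phytochrome-interacting bHLH factor, had 31.2, 32.8 and 31.0 RPKM in H9 and 9.90, 10.4 and 10.5 in H20 (log2 fold change -1.51 ± 0.11, edgeR adjusted p = 1.36e-07), and PIF5 (8112), of the same family, fell by 1.11 on the log2 scale. BEE3 (3451), a growth-promoting bHLH of brassinosteroid response, had 29.1, 30.4 and 28.1 in H9 and 2.87, 4.59 and 2.23 in H20 (log2 fold change -3.07 ± 0.25, edgeR adjusted p = 2.38e-07). ATHB2 (1983), a homeodomain factor of shade response, had 86.7, 74.6 and 76.0 in H9 and 31.7, 22.0 and 28.1 in H20 (log2 fold change -1.42 ± 0.13, edgeR adjusted p = 5.79e-07). No pool overlapped in these 4. KDR (8823), a small bHLH that favours elongation, fell by 1.37 on the log2 scale, while IBH1 (22018), a bHLH that represses elongation, was the one that rose, from 42.8, 44.8 and 33.2 to 118, 97.0 and 111 (log2 fold change 1.58 ± 0.15, edgeR adjusted p = 6.56e-07). GLK1 (1401), which drives chloroplast development, fell from 29.4, 36.1 and 39.7 to 2.56, 1.82 and 2.51 (log2 fold change -3.81 ± 0.20, edgeR adjusted p = 8.56e-09), and COL2 (5999), a CONSTANS-like factor, from 82.7, 87.0 and 93.0 to 25.9, 24.2 and 24.6.

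**Figure D3:**
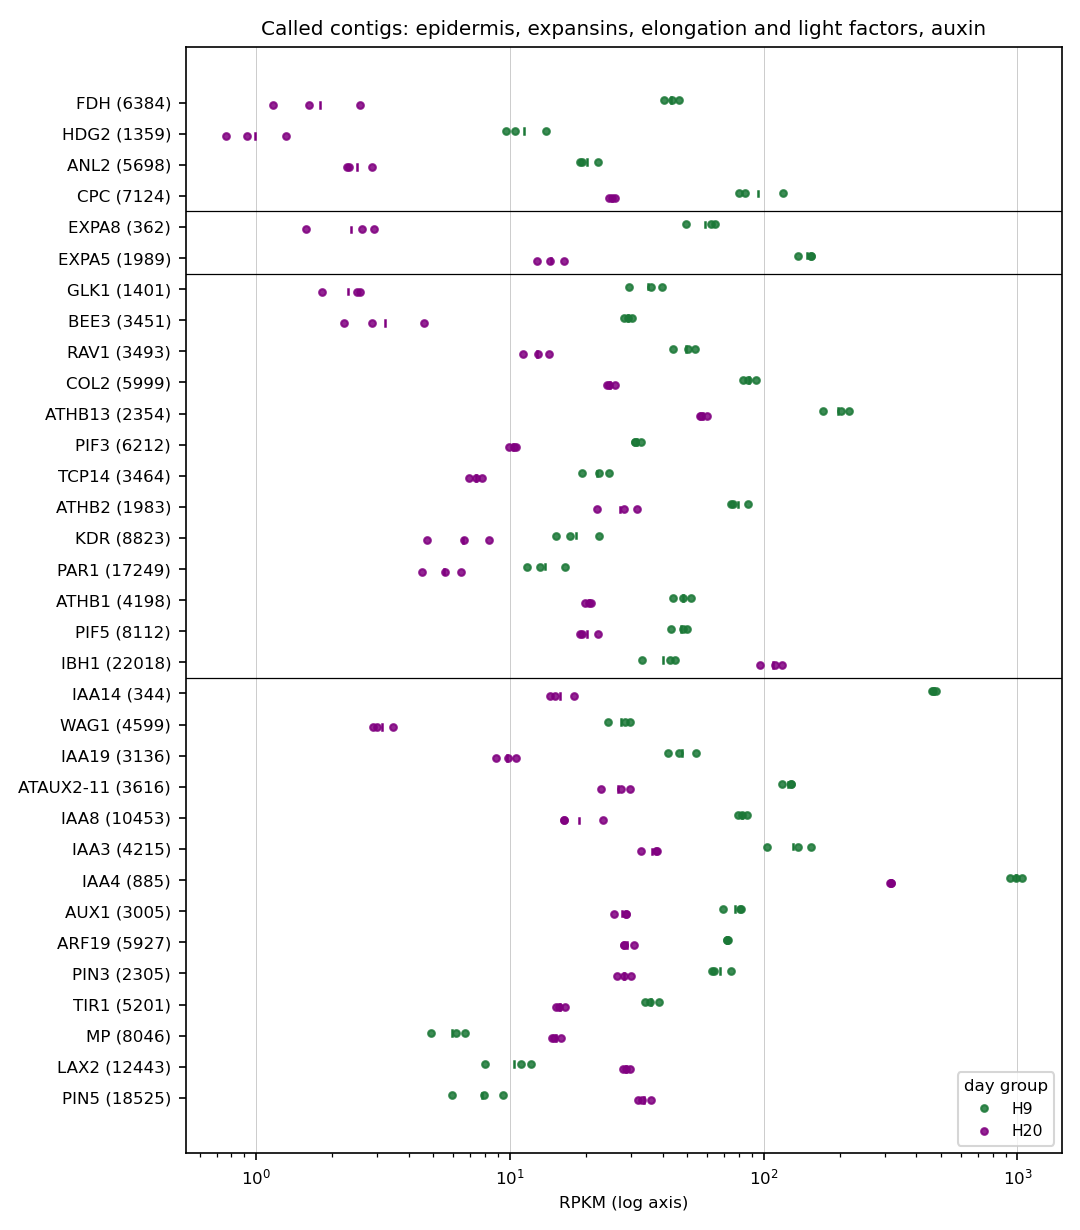
RPKM (log axis) of selected called contigs with a gene symbol among epidermis markers (top block), expansins, elongation and light factors, and auxin genes (bottom block), with the contig number in brackets; dots are the 3 libraries of H9 (green) and H20 (purple), short bars their means. Purple lies left of green except for IBH1 and for MP, LAX2 and PIN5 at the foot of the plot.

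Of 6 circadian clock contigs 0 rose and 1 fell, RVE8 (11901), at -1.02 and lost with DESeq2 (-0.96), without H20 replicate 1 (-0.995) and without H9 replicate 1 (-0.92). All 6 had every H20 pool below every H9 pool, which 46.5% of all contigs had. TOC1 (124), an evening gene, had 8.21, 9.58 and 9.75 RPKM in H9 and 7.69, 7.59 and 7.60 in H20 (log2 fold change -0.15 ± 0.12, edgeR adjusted p = 0.243). LHY (2389), a morning gene, had 425, 376 and 410.2 in H9 and 271, 251 and 248 in H20 at -0.54. GRP7 (469), PRR5 (9018) and FKF1 (17645) lay lower without passing, at -0.69, -0.70 and -0.83. In H15 TOC1 had a mean of 31.6 and LHY one of 154, and H20 against H15 called 4 of the 6 lower. In TOC1 H9 and H20 lay closer to each other than either did to H15. The hour of harvest is not given in the sources used here, and its part in the light and clock values was not tested.

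Auxin genes fell in 15 of 31 contigs and rose in 5 (median -0.95). The Aux/IAA genes, whose products repress auxin response and which auxin itself induces, made up most of the abundant fallers. IAA14 (344) had 478, 465 and 459 RPKM in H9 and 15.1, 14.4 and 17.9 in H20 (log2 fold change -4.77 ± 0.14, edgeR adjusted p = 2.03e-10), with replicate pools close together. IAA4 (885) had 937, 1043 and 988 in H9 and 319, 315 and 318 in H20 (log2 fold change -1.53 ± 0.10, edgeR adjusted p = 3.15e-08). IAA19 (3136), an auxin-induced gene of hypocotyl growth, had 46.3, 54.3 and 42.2 in H9 and 8.85, 9.86 and 10.6 in H20 (log2 fold change -2.17 ± 0.14, edgeR adjusted p = 3.61e-08). Each was lower in all H20 pools, and their H15 means were 61.0, 446 and 12.0. IAA8 (10453) and IAA3 (4215) fell by 2.02 and 1.74 on the log2 scale. IAA16 (147), at a like level to IAA4 in H9, had 987, 952 and 925 in H9 and 452, 449 and 466 in H20 and missed the fold threshold at -0.95.

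Auxin receptors, response factors and carriers divided, with members of a kind on both sides. TIR1 (5201), a receptor, had 38.5, 34.0 and 35.7 RPKM in H9 and 16.5, 15.7 and 15.3 in H20 (log2 fold change -1.08 ± 0.11, edgeR adjusted p = 1.47e-06). ARF19 (5927), a response factor of growth, had 71.8, 72.6 and 71.8 in H9 and 30.8, 28.2 and 28.1 in H20 (log2 fold change -1.20 ± 0.11, edgeR adjusted p = 5.95e-07). PIN3 (2305), an exporter of bending and shade growth, fell by 1.14 on the log2 scale, AUX1 (3005), an importer, by 1.37, and WAG1 (4599), a kinase acting on exporters, by 3.02. MP, described above, rose, as did the importer LAX2 (12443), from 12.1, 8.00 and 11.1 to 28.0, 29.7 and 28.6 (log2 fold change 1.58 ± 0.16, edgeR adjusted p = 1.04e-06), and PIN5 (18525), a carrier of the endoplasmic reticulum, from 9.45, 7.89 and 5.93 to 32.0, 36.0 and 33.1 (log2 fold change 2.24 ± 0.28, edgeR adjusted p = 9.09e-06). A second AUX1 contig (13489) had 42.1, 26.2 and 37.0 in H9 and 27.2, 22.6 and 28.6 in H20 with overlapping pools (log2 fold change -0.31 ± 0.26, edgeR adjusted p = 0.28).

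Other hormone genes fell more often than they rose. For cytokinin and ethylene 2 of 11 contigs rose and 5 fell (median -0.99). LOG1 (6712), which releases active cytokinin, had 38.9, 40.2 and 39.4 RPKM in H9 and 3.97, 3.52 and 3.86 in H20 (log2 fold change -3.26 ± 0.19, edgeR adjusted p = 1.84e-08). CKX1 (19053), which degrades cytokinin, had 10.5, 7.91 and 10.4 in H9 and 1.25, 1.5 and 1.43 in H20 (log2 fold change -2.67 ± 0.21, edgeR adjusted p = 1.86e-07), both without overlap. EFE (1497), the ethylene-forming enzyme, fell from 727, 662 and 799 to 179, 164 and 195 (log2 fold change -1.91 ± 0.14, edgeR adjusted p = 9.98e-08), while ACO5 (2179), another enzyme of that step, rose from 7.21, 7.23 and 5.79 to 35.1, 35.3 and 39.2 (log2 fold change 2.55 ± 0.12, edgeR adjusted p = 3.50e-09). For gibberellin and brassinosteroid 2 of 11 rose and 5 fell (median -0.80): CPD (4890), of brassinosteroid synthesis, had 46.1, 46.0 and 43.8 in H9 and 15.4, 12.5 and 13.99 in H20 (log2 fold change -1.58 ± 0.11, edgeR adjusted p = 5.02e-08). BRI1 (1535), the brassinosteroid receptor, had 25.0, 25.2 and 23.9 in H9 and 13.0, 13.4 and 12.8 in H20, under the fold threshold at -0.80. The gibberellin receptor contigs parted, GID1C (3739) falling by 1.18 on the log2 scale and GID1B (1545) rising by 1.12, the latter not past the threshold with limma (0.94) or without H9 replicate 1 (0.99).

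Of 4 jasmonate contigs 2 fell, both LOX2. The second (408) had 127, 121 and 99.7 RPKM in H9 and 4.68, 5.44 and 5.83 in H20 (log2 fold change -4.33 ± 0.16, edgeR adjusted p = 7.40e-10), below H9 in all pools as the first was. LOX1 (46) rose by 1.14, a call lost with limma (0.99), without H20 replicate 3 (0.87) and without H9 replicate 1 (1.00), and OPR2 (2601) had 42.4, 45.9 and 32.3 in H9 and 35.3, 38.1 and 40.7 in H20. Of 6 abscisic acid contigs 4 fell and 1 rose (median -1.21). Among phosphatases that hold back abscisic acid signalling, HAB1 (3022) fell from 46.2, 43.4 and 45.9 to 14.8, 14.9 and 15.1 (log2 fold change -1.48 ± 0.09, edgeR adjusted p = 2.05e-08) and HAI3 (11773) rose from 3.99, 2.45 and 3.48 to 32.4, 27.8 and 21.9 (log2 fold change 3.16 ± 0.30, edgeR adjusted p = 8.22e-07). LTI65 (218), a gene induced by drought and abscisic acid, had 733, 598 and 709 in H9 and 256, 206 and 252 in H20 (log2 fold change -1.40 ± 0.12, edgeR adjusted p = 4.34e-07).

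Most photosynthesis contigs stayed under the fold threshold. Of 43 contigs of light harvesting and photosystems 0 rose and 5 fell, with a median of -0.43, and 10 fell when libraries were scaled by mapped reads alone. The 5 were 11.6% of the list, where 27.2% of all contigs fell. Every H20 pool lay below every H9 pool in 33 of the 43 and above in 4. Over all contigs these shares were 46.5% and 40.0%. CAB1 (126), a chlorophyll-binding protein and one of the most abundant transcripts in the table, had 6254, 7589 and 7643 RPKM in H9 and 3345, 3565 and 3422 in H20 at -0.94 on the log2 scale, not past the fold threshold although the pools did not overlap. PSAO (1100), of photosystem I, had 291, 308 and 379.9 in H9 and 115, 112 and 113 in H20 (log2 fold change -1.42 ± 0.12, edgeR adjusted p = 3.01e-07). Of 13 Calvin cycle contigs 3 fell and 1 rose (median -0.52), while 10 had every H20 pool below every H9 pool and 1 above. PRK (2857), phosphoribulokinase, had 139, 132 and 149 in H9 and 54.1, 49.8 and 54.8 in H20 (log2 fold change -1.29 ± 0.10, edgeR adjusted p = 1.09e-07), and the Rubisco small subunit RBCS1A (1110) 327, 385 and 351 in H9 and 223, 227 and 198 in H20 at -0.60. The contig that rose, RBCS (22177), is another small subunit match of low level, with 5.40, 4.72 and 5.28 in H9 and 45.0, 54.2 and 70.4 in H20 (log2 fold change 3.57 ± 0.26, edgeR adjusted p = 8.10e-08). Chlorophyll synthesis had 0 of 8 contigs called with edgeR or DESeq2 and 1 with limma, at a median of -0.18, and 4 had an unadjusted edgeR p under 0.05. H9 against H6 called 15 of the 43 photosystem contigs lower in H9.

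The heat shock response was high at day 20 and low at day 9. Of 50 heat shock and chaperone contigs 27 rose and 4 fell, with a median of 1.23. HSP101 (156), which pulls proteins out of aggregates, had 8.67, 5.96 and 5.09 RPKM in H9 and 529, 408 and 346 in H20 (log2 fold change 6.14 ± 0.26, edgeR adjusted p = 2.16e-09), and HSP90.1 (256), an inducible cytosolic chaperone, 15.3, 13.0 and 13.9 in H9 and 723, 688 and 609 in H20 (log2 fold change 5.70 ± 0.19, edgeR adjusted p = 2.83e-10). Every H20 pool was far above every H9 pool. Small heat shock proteins followed, HSP17.6II (453) with 16.5, 17.5 and 10.2 in H9 and 264, 306 and 303 in H20 (log2 fold change 4.42 ± 0.21, edgeR adjusted p = 4.41e-09) and the plastid HSP21 (265) with 7.71, 9.16 and 6.83 in H9 and 119, 59.7 and 38.5 in H20 (log2 fold change 3.32 ± 0.37, edgeR adjusted p = 2.83e-06), the latter uneven among H20 pools. HSFA2 (8688), the factor that sustains the response, rose from 2.47, 1.67 and 1.22 to 26.7, 18.9 and 12.0 (log2 fold change 3.54 ± 0.30, edgeR adjusted p = 2.81e-07), and Hsp70b (149) from 90.1, 66.5 and 69.7 to 1186, 957 and 810.2 (log2 fold change 3.82 ± 0.20, edgeR adjusted p = 7.39e-09). H20 replicate 3 was the lowest H20 library for 25 of the 50 contigs.

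Over the 4 days HSP101 and HSP90.1 stood high, low, low and intermediate. HSP101 had a mean of 1051 RPKM in H6 and 7.11 in H15, and HSP90.1 2701 and 13.2. H9 against H6 called 31 of the 50 contigs lower in H9, and H20 against H15 called 23 higher in H20. Of the 4 that fell between H9 and H20, 3 were J-domain proteins, J8 (1206), AT4G36040 (3210) and AT1G77020 (10825), which fell by 2.69, 1.94 and 3.39 on the log2 scale, and the fourth a small heat shock family gene of low level, AT4G21870 (21227), at -1.13. The temperature of the growth cycle is stated as the same for all days, and the temperature around harvest is not given in the sources used here.

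**Figure D4:**
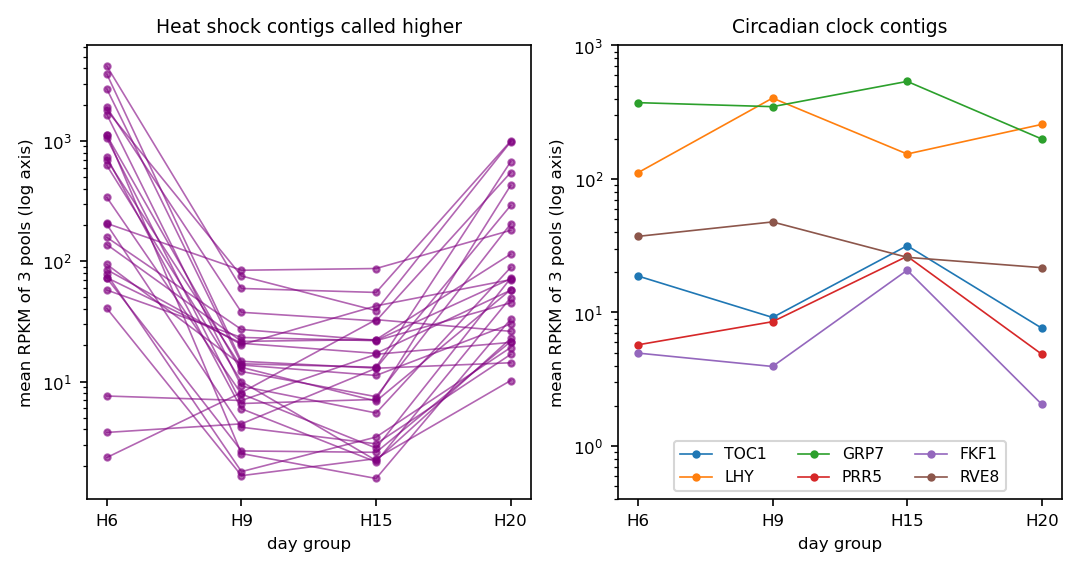
Mean RPKM of 3 pools (log axis) on the 4 days for the 27 heat shock contigs called higher in H20 than in H9 (left, 1 line per contig) and the 6 circadian clock contigs (right). Most heat shock lines are high in H6, low in H9 and H15 and intermediate in H20, while TOC1, PRR5 and FKF1 peak in H15.

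Flavonoid contigs divided. Of 10, 5 rose and 4 fell, and 3 rose when libraries were scaled by mapped reads alone. On the way to anthocyanins, F3H (6178), a hydroxylase, fell from 18.1, 15.6 and 14.2 to 2.08, 3.73 and 2.88 RPKM (log2 fold change -2.36 ± 0.24, edgeR adjusted p = 1.54e-06), DFR (8838), a reductase, from 16.9, 12.0 and 7.39 to 1.98, 3.58 and 1.99 (log2 fold change -2.16 ± 0.33, edgeR adjusted p = 4.60e-05), and LDOX (1041) from 7.35, 4.15 and 7.62 to 0.54, 1.14 and 1.72. With them fell MYB114 (8740), a MYB activator of anthocyanin genes, from 27.6, 31.4 and 20.8 to 5.80, 13.97 and 6.47. The early enzyme CHI (3689) rose from 17.7, 17.0 and 17.0 to 45.2, 37.7 and 39.1 (log2 fold change 1.35 ± 0.13, edgeR adjusted p = 7.15e-07), as did 3 of 4 contigs matched to F3'H, a P450 hydroxylase, led by 1655 with 126, 107 and 98.7 in H9 and 268, 274 and 291 in H20. CHS (6536), chalcone synthase, had 19.3, 9.77 and 7.13 in H9 and 22.8, 26.8 and 22.9 in H20 at 1.12, with H9 pools from 7.13 to 19.3.

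Aquaporins, which carry water across membranes, rose in 4 of 9 contigs and fell in 3. TIP2;3 (281) had 293, 328 and 405 RPKM in H9 and 47.2, 50.7 and 42.8 in H20 (log2 fold change -2.75 ± 0.17, edgeR adjusted p = 2.37e-08) and PIP1C (1846) 145, 165 and 95.0 in H9 and 13.3, 21.4 and 12.6 in H20 (log2 fold change -2.99 ± 0.27, edgeR adjusted p = 5.59e-07), while PIP1;4 (279) rose from 59.7, 44.6 and 54.4 to 139, 152 and 145 (log2 fold change 1.57 ± 0.12, edgeR adjusted p = 1.70e-07). Gamma-TIP (710), the most abundant, had 788, 762 and 973 in H9 and 847, 893 and 840.4 in H20 with overlapping pools. Seed reserve genes had 3 of 7 contigs lower and 1 higher. PCK1, which starts sugar formation from reserves, had one contig of each kind: 2692 fell from 15.1, 27.5 and 35.4 to 1.46, 1.12 and 1.52 (log2 fold change -4.13 ± 0.40, edgeR adjusted p = 8.53e-07) and 528 rose from 33.8, 33.7 and 15.6 to 83.8, 101 and 104 (log2 fold change 1.92 ± 0.25, edgeR adjusted p = 1.00e-05). Ribosomal proteins differed least of the larger lists, with 0 of 43 higher, 1 lower and a median of 0.02 that turns to -0.09 when libraries are scaled by mapped reads alone.

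**Figure D5:**
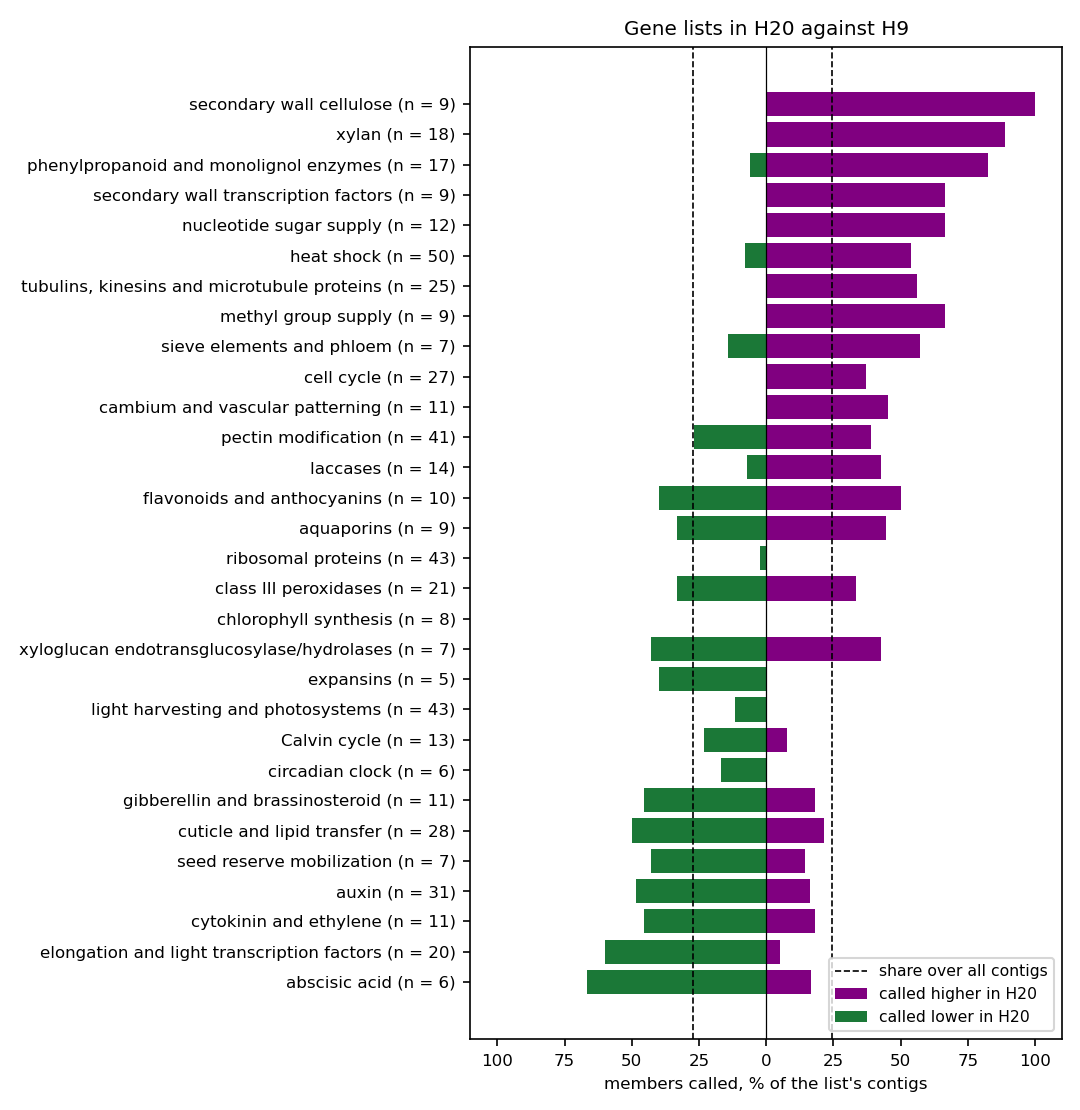
Share of each gene list's contigs called higher (purple, right) or lower (green, left) in H20 against H9, in % of the list, for lists with at least 5 contigs, ordered by median log2 fold change; dashed lines mark the shares over all contigs, 24.6% higher and 27.2% lower. Secondary wall cellulose and xylan lie at the top, and auxin, cytokinin and ethylene, elongation and light factors and abscisic acid at the foot.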

How the data were processed

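Total RNA of whole hypocotyls was made into stranded mRNA libraries. In the CLC Genomics Workbench the authors trimmed and de-duplicated the reads, built a de novo assembly and mapped every library back to its contigs. The deposited count values are reads with a single position per contig. The deposited RPKM values scale these counts by contig length and by the mapped reads of the library, as the authors computed them. The p-value column holds the FDR of the authors' own test over the 4 days, and the authors' fold changes and p-values were not used. The authors deposited only contigs that passed their limits on mapped reads, FDR, fold change and RPKM difference.

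Counts were fitted here with edgeR 4.0.16 (R 4.3.3), with 1 model for 12 libraries, a mean per day, library sizes implied by counts and RPKM, TMM factors (0.926 to 1.06) and the quasi-likelihood F test (8 residual degrees of freedom). Benjamini-Hochberg adjustment ran over 3622 contigs. The authors had selected these on the same 12 libraries, so the adjusted p values are not false discovery rates of an independent test. Contigs were called where the adjusted p lay below 0.05 and the log2 fold change beyond 1 in either direction. Replicates are separate pools of plants, and no 2 libraries of a day were alike within sampling noise. Alternatives were DESeq2 1.42.0, mapped reads without TMM, the 6 libraries alone, a replicate block, at least 50 reads in 3 libraries, limma 3.58.1 on log2(RPKM + 1), and leaving out each library.

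Of the contigs, 2673 carry a symbol or locus and 413 neither symbol nor description, and 455 share a name with another. The 36 gene lists hold 542 memberships. The comparison, members and lists were chosen with earlier results of these data known. Patterns were matched to deposited symbols as well as descriptions, and 17 wrong matches were dropped and 24 missed ones added after values were seen. Genes named were taken from the 12 largest rises and 12 largest falls (annotated, called, no overlap, higher mean at least 10 RPKM), from each list up to 3 called members with the largest and 3 with the smallest change, and every contig of the secondary wall cellulose, secondary wall factor, cambium, phloem and clock lists (1 contig is not reported here). Other members are named after their values were seen. SE is a standard error derived here, the absolute edgeR log2 fold change divided by the square root of its F statistic. The spread behind F was estimated on all 12 libraries. Errors after ± are SE, each with n = 3 libraries per day.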

Additional observations from a re-analysis of the deposited data

How the results depend on the processing

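H20 against H9 gave 1877 calls, and the alternatives kept the totals within 1.5 times: 951 higher and 920 lower with DESeq2, 801 and 1116 with mapped reads alone, 892 and 984 with the 6 libraries alone, 891 and 983 with at least 50 reads in 3 libraries, 760 and 1053 with limma, and 1816 to 1908 in all when a library was left out. With DESeq2 the median contig lay at 0.01 in place of -0.05. H20 against H15 gave 478 to 527 calls and H9 against H6 1208 to 1381 with a library left out. For H9 against H6 DESeq2 gave 909 higher and 458 lower in place of 647 and 658, with a median of 0.26. Of 174 called contigs that the naming rule selects, 149 were called in the same direction under every alternative. The others fell short of the fold or p threshold under 1 or more settings, 15 of them with limma, 12 without H9 replicate 2 and 9 with mapped reads alone, and no called contig changed direction. Signs turned for 2 uncalled contigs near 0: VND1 (11824) from 0.11 to -0.036 without H9 replicate 2 (-0.036 to 0.27 with a library left out), and WLIM1 (8357) from -0.05 to 0.018 with DESeq2, and to 0.01 without H20 replicate 3 and 0.15 without H9 replicate 2 (-0.14 to 0.15 with a library left out). The cause was not tested.

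Replicate numbers do not pair the pools: deviations of same-numbered pools on different days correlated at -0.261 to 0.241 (median 0.04) and those of different numbers at -0.286 to 0.30. With the replicate number as a block H20 against H9 gave 893 higher and 986 lower, and none of the 190 contigs selected by the naming rule changed its verdict.

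With 3 pools a day and a biological coefficient of variation of 0.168, contigs close to a 2-fold change moved in and out of the calls. TMM was computed on contigs selected for differing, of which many moved. No contig was at 0 in any library, which the authors' limit on mapped reads had fixed beforehand.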

Other observations

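Groups of genes outside the lists above were chosen after their values were seen, and are given as values without any test of the group. Over all contigs 24.6% were higher and 27.2% lower. The plasma membrane proton pumps, which acidify the wall, had 8 of 8 contigs lower in H20 than in H9, with a median log2 fold change of -2.54. These contigs are 374 to 925 bases long and some share a name (HA5, HA6), so they may be parts of fewer genes. Contig 130 had 563, 657 and 481 RPKM in H9 and 63.7, 65.0 and 67.2 in H20 (log2 fold change -3.0 ± 0.24, edgeR adjusted p = 1.70e-07), and HA2 (5958) 159, 112 and 165 in H9 and 25.9, 20.8 and 23.4 in H20 (log2 fold change -2.52 ± 0.31, edgeR adjusted p = 7.53e-06), with no pool of one day reaching the other. Blue-light growth and chloroplast movement genes had 10 of 13 contigs lower and 0 higher (median -1.64; 1 higher without H20 replicate 3 or H9 replicate 1). PHOT1 (1505), a blue-light receptor, had 217, 193 and 194 in H9 and 32.7, 24.4 and 29.6 in H20 (log2 fold change -2.68 ± 0.18, edgeR adjusted p = 4.71e-08), and PKS4 (7466), a phytochrome kinase substrate of bending, 48.5, 50.1 and 45.9 in H9 and 3.37, 4.11 and 2.70 in H20 (log2 fold change -3.72 ± 0.21, edgeR adjusted p = 1.16e-08). Disease resistance genes with NB-ARC or TIR domains had 12 of 16 lower and 0 higher (median -1.47), RPM1 (7156) among them with 62.3, 61.3 and 75.6 in H9 and 10.9, 7.66 and 13.7 in H20. Some of these contigs also share a name and may be parts of fewer genes.

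In the other direction, 7 of 7 contigs of the O-fucosyltransferase family were higher (median 1.57), led by AT2G37980 (7862) with 11.8, 11.3 and 9.78 RPKM in H9 and 156, 110.4 and 122 in H20 (log2 fold change 3.68 ± 0.17, edgeR adjusted p = 3.50e-09), and 6 of 9 nucleotide-sugar transporters, with 0 lower (median 1.37). AT5G42420 (24761) of that group had 7.16, 4.69 and 1.89 in H9 and 142, 87.9 and 89.3 in H20. Of the 3 inositol oxygenase contigs, MIOX1 (14402) was higher while MIOX4 (12786) had 40.9, 67.4 and 86.4 in H9 and 2.89, 1.43 and 2.95 in H20 (log2 fold change -4.63 ± 0.47, edgeR adjusted p = 1.34e-06), and MIOX1 (2516) 75.4, 94.3 and 77.4 in H9 and 17.1, 12.0 and 14.4 in H20 (log2 fold change -2.39 ± 0.18, edgeR adjusted p = 1.35e-07), so that contigs matched to one enzyme moved in opposite directions with non-overlapping pools. Of 5 fasciclin-like arabinogalactan contigs 4 were higher, and FLA2 (12544) had 73.8, 50.9 and 61.8 in H9 and 44.0, 42.8 and 48.3 in H20 without passing the test. Starch and trehalose genes had contigs on both sides. BAM1, a beta-amylase, had 2 contigs lower in H20, at log2 fold changes of -3.78 and -4.26 (5265 and 16380), BAM5 (8240) was higher at 2.05, and the starch phosphorylase AT3G29320 (5000) had 11.3, 8.42 and 10.8 in H9 and 51.6, 57.7 and 56.6 in H20. Of 10 trehalose phosphate contigs 3 were higher, among them TPS1 (14112) at 2.41, and 3 lower, among them TPS9 (7829) at -4.12. These 30% each way are near the 24.6% higher and 27.2% lower over all contigs.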
